A study of Homo sapiens with 2 samples.

Results

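The probe sets described here read the cancer testis antigen families of K562 cells, a human leukaemia line that carries BCR-ABL. They were chosen by gene name alone: a probe set was taken when at least 1 of its annotated genes was a MAGEA, MAGEB, MAGEC, GAGE, SSX, PAGE, XAGE or CTAG gene, or PRAME. The rule took 61 genes, read by 65 of 54613 human probe sets, and 24 of these probe sets are annotated to several genes and are called shared below. It also took 10 probe sets of genes outside these families that match the rule by name. They are 6 of SSX2IP, which encodes a protein that binds SSX2, and 4 of the CTAGE genes. The other 55 belong to the 9 families proper. RNA was read from 1 array of cells with the control retroviral vector pMSCV and 1 array of cells overexpressing PML4, an isoform of the promyelocytic leukaemia protein. Both cultures were K562, were grown in medium with 10% FBS at 37 °C, and had been kept in G418 for 3 weeks. With 1 array a group there is no replicate error, so no test between the groups could be made and every difference is between these 2 arrays only. The labels do not say whether the selected cells were a pool or a clone, nor how much PML4 protein they held. In bulk RNA, fewer cells with a transcript and less of it per cell cannot be told apart.

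Cancer testis genes are transcribed in male germ cells, are silent in most adult tissues and are switched on again in many tumours. Most of the families lie on the X chromosome in clusters of recent copies, and in somatic cells DNA methylation of their promoters is the best known part of their silencing. Their peptides can be shown to T cells, and MAGE, GAGE and CTAG genes encode known tumour antigens. What all the families share is a pattern of expression, not a sequence or a function. Some are related, the MAGE families to each other and PAGE and XAGE to GAGE.

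Promoter sequences of the members that the results turn on show how alike the copies are, and they come from RefSeq's windows of 250 bases before to 50 after each start on GRCh38.p14. Of 61 genes of the rule with a probe set, 51 had such a window, and with alternative starts they had 67 windows. The 150 bases just before the most upstream listed start are given 5′ to 3′, with each CG dinucleotide, the letters that DNA methylation acts on, in capitals.
SSX1, GRCh38.p14 chrX:48255242-48255391, plus strand: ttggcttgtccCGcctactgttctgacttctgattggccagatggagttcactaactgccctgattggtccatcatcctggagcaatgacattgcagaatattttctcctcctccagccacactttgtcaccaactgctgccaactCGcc
SSX2, GRCh38.p14 chrX:52707228-52707377, minus strand: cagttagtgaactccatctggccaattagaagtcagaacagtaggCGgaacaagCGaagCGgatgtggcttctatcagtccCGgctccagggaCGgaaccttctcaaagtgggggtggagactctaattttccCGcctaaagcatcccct
SSX4, GRCh38.p14 chrX:48383389-48383538, plus strand: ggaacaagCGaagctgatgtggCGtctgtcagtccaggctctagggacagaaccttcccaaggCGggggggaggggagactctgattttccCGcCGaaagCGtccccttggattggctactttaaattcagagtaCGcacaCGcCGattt
MAGEA3, GRCh38.p14 chrX:152698644-152698793, plus strand: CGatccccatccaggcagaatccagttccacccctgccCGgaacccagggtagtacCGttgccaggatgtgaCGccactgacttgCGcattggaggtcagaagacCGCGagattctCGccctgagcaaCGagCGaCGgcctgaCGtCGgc
MAGEA6, GRCh38.p14 chrX:152769690-152769839, minus strand: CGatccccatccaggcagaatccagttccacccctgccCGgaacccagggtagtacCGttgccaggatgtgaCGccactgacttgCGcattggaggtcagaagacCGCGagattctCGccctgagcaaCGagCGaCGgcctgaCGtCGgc
MAGEC1, GRCh38.p14 chrX:141903744-141903893, plus strand: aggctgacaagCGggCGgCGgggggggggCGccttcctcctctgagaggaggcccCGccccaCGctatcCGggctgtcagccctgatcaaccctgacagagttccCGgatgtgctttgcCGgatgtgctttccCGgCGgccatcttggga
MAGEA3 and MAGEA6 carry the same letters on opposite strands, and their whole windows are identical over 300 bases. Aligned end to end, the best pair of windows of SSX2 and SSX4 was 84.7% identical, while that of SSX1 and SSX2 was 47.3% identical. Windows of the SSX genes held between 5 and 12 CG dinucleotides, a median of 9.5, and windows of the MAGEA genes held between 9 and 21, a median of 14, against a median of 14 over all 35116 windows of 300 bases. 3 motifs were searched on both strands, none overlapping another. The letters CCGGAAG were in 10.3% of all windows and in 1 of 61 windows of the families proper, that of MAGEB6, and TATAAA was in 11.5% of all windows and in none of the 61. CACGTG was in 7.26% of all windows, in all 12 windows of the GAGE genes, which are near copies of each other, and in all 4 of the PAGE genes. In PAGE1 these letters, in capitals here, end at the base before the start.
PAGE1, GRCh38.p14 chrX:49695985-49696134, minus strand: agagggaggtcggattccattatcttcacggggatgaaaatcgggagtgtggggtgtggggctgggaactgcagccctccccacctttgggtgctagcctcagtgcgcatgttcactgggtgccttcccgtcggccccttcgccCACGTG
A match is a description of the letters and says nothing of a factor, and methylation was not measured.

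The values are MAS5 signals, the array maker's summary of the matched and mismatched probes of a probe set. The deposited arrays had nearly equal trimmed means, 499.0 for the control vector and 498.8 for PML4. The floor was 72.4, the median signal of human probe sets over both arrays, and signals under it were raised to it. Being measured means a signal over that floor on either array or on both, and a call is a difference of at least 2-fold. Of 29370 measured probe sets, 1.3% were called higher and 3.22% lower with PML4, so lower calls were the more common in general. Their median difference, log2 PML4 minus log2 control, was -0.07. Low signals leaned further down: in the dimmest 7343 probe sets, with mean signals up to 136.0, the median was -0.19, and 4.83% were called lower against 1.53% higher. In the next 7342, 5.39% were called lower and 1.95% higher. Only the control array put 3114 probe sets over the floor, and only the PML4 array 1037. Differences of 2 probe sets of 1 gene lay a median of 0.30 apart in all and 0.42 apart in those dimmest 7343, a spread that covers no error between cultures. PML itself was measured by 9 of 10 probe sets, which disagreed: 5 were higher and 4 lower, with 2 called higher and 1 called lower. Among them 210362_x_at gave 98.1 and 698.5 while 206503_x_at gave 927.2 and 156.5, so directions here rest on the array labelled PML4.

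Of the 65 probe sets 39 were measured, 4 were called lower, none was called higher, and all 4 calls were in SSX genes. Over the 55 of the families proper, 31 were measured, 18 with a higher and 13 with a lower signal on the PML4 array. Outside SSX, 24 were measured, none was called, and 18 of them had a higher signal. Over all measured probe sets 43.1% had a higher signal, and among the brightest 7343 it was 55.0%. The median difference of the 24 was 0.20. These 24 are not independent readings. Among them 4 are of GAGE and 5 of the copies MAGEA2, MAGEA3, MAGEA6 and MAGEA12, and all 9 were higher. The plot of signals by family shows both groups of values.

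**Figure D1:**
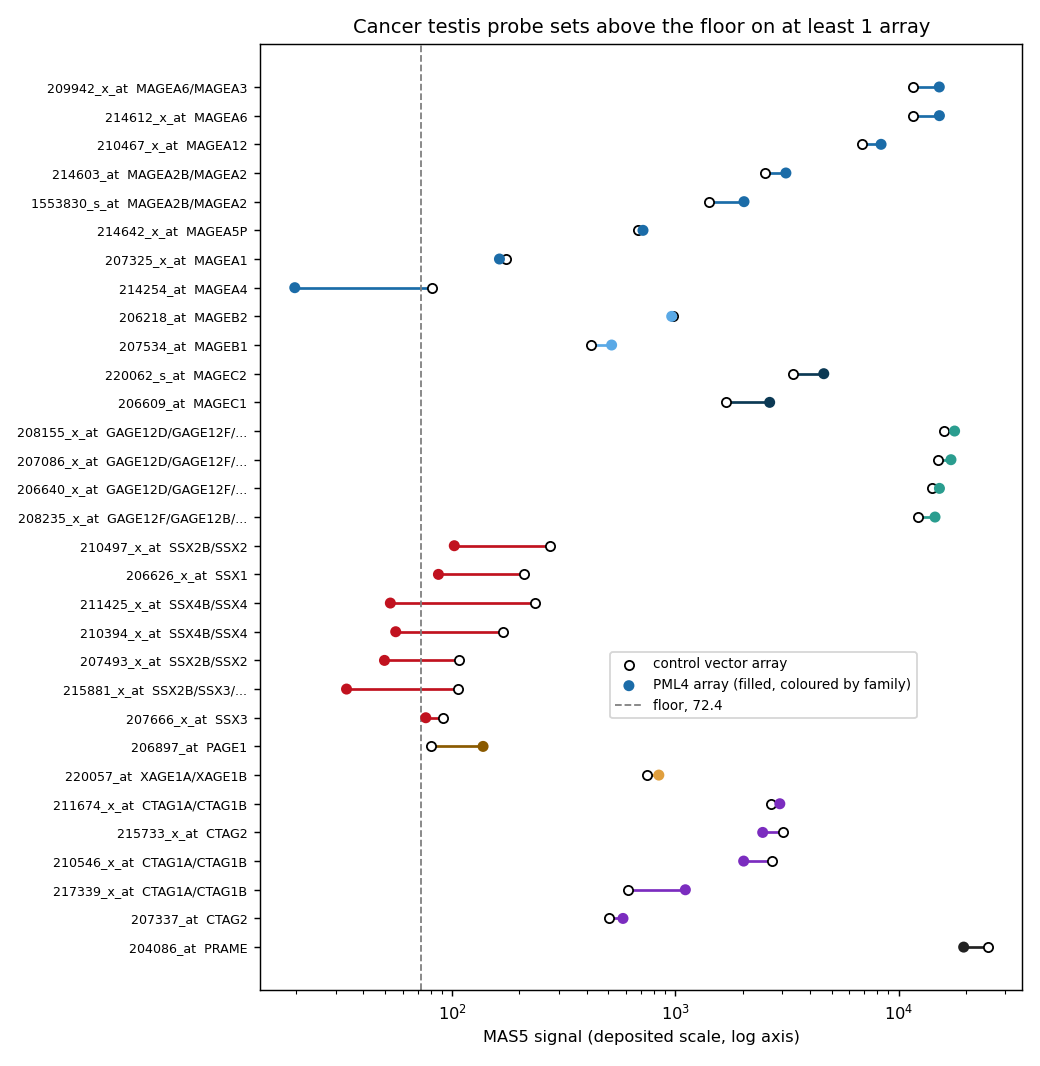
MAS5 signal on a log axis for the 31 measured probe sets of the families proper, open circles for the control vector array, filled circles for the PML4 array and a dashed line at the floor of 72.4. All 7 SSX probe sets moved left from control to PML4, while the 4 GAGE and 2 MAGEC probe sets moved right by less than 2-fold.

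SSX probe sets were lower on the PML4 array, at signals close to the floor. SSX proteins are transcriptional repressors bound to chromatin, known from the fusion of SSX1, SSX2 or SSX4 to SS18 in synovial sarcoma. The probe set 210497_x_at, shared by SSX2 and SSX2B, gave a signal of 274.9 with the vector and 102.1 with PML4, 2.69-fold lower. SSX1 was read by 206626_x_at at 209.6 and 86.7, 2.42-fold lower. Both stayed above the floor on both arrays, so these folds are measured on both sides.

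The SSX4 genes were read by a pair of shared probe sets that lay under the floor with PML4. The probe set 211425_x_at gave 235.5 with the vector and 52.8 with PML4, at least 3.25-fold lower. The probe set 210394_x_at was at 169.1 and 55.8, at least 2.34-fold lower. Both entered through the control array, so their direction could only be lower. The third SSX4 probe set, 208586_s_at, was under the floor on both arrays, at 52.8 and 20.7.

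The other measured SSX probe sets were lower by less than a call. The probe set 207493_x_at, for SSX2 and SSX2B, was at 107.6 and 49.7, at least 1.49-fold lower, and 215881_x_at, shared by SSX2, SSX2B and SSX3, was at 106.4 and 33.6, at least 1.47-fold lower. SSX3 alone was read by 207666_x_at at 90.7 and 76.1. That last probe set was nearly level, with a log2 difference of -0.25 that turned to 0.05 after quantile normalization.

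The count of SSX calls has to be read with how the probe sets entered it. Of 7 measured SSX probe sets 4 passed that floor with the vector alone, so these could only be lower, and the median of -1.22 over the 7 is given as a description. Of the 3 above the floor on both arrays 2 were called. Over all 14 SSX probe sets with no filter, 12 had a lower and 2 a higher signal with PML4, against 58.2% lower over all human probe sets, and most of those signals are near background. The 2 higher ones, 216471_x_at for SSX2 at 25.2 and 68.3 and 211731_x_at for SSX3 at 11.5 and 45.0, were under the floor on both arrays. All 7 lay in the dimmer part of the scale. The share called lower was 4.83% in the dimmest 7343 probe sets, which hold 6 of the 7. It was 5.39% in the next 7342, which hold the other. Those shares cover probe sets however they passed the floor. They are therefore not matched to the 4 that passed with the vector alone. The part of the general shift of dim probe sets in the SSX differences was not tested. After quantile normalization, which gives both arrays one distribution, 4 SSX probe sets were called lower. The array's own control probe sets of similar brightness, 21 with a higher signal between the floor and 300, had PML4 to control ratios between 0.44 and 1.72, with a median of 0.99. Those ratios were taken without the floor, and 21 probe sets are too few to give the spread of dim human ones. Shared probes among near copies also mean that the 7 readings are not independent.

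**Figure D2:**
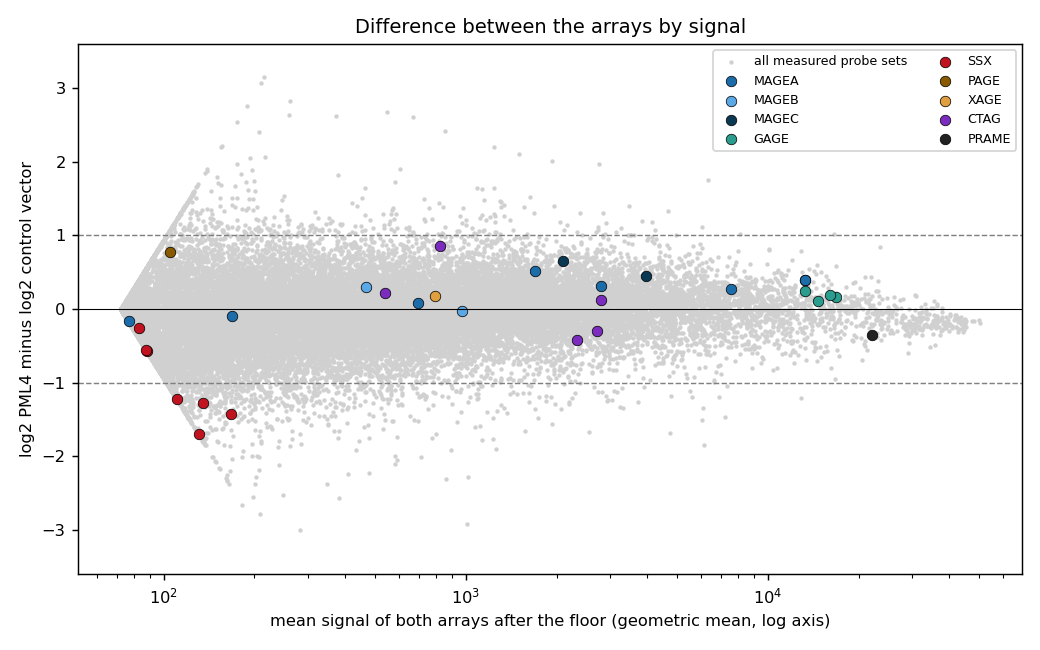
Log2 difference, PML4 minus control vector, against the geometric mean signal after the floor (log axis), grey points for all 29370 measured probe sets and coloured points for the families. Dashed lines mark a 2-fold difference; the SSX probe sets lie at the dim end between -1.70 and -0.25, and the diagonal edge is formed by probe sets with 1 array at the floor.

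The 4 SSX calls were also made after quantile normalization and after loess centring. After quantile normalization 210497_x_at was at -1.25, 206626_x_at at -1.06, just past a call, 211425_x_at at -1.64 and 210394_x_at at -1.14. After loess centring 210497_x_at was at -1.28, 206626_x_at at -1.12, 211425_x_at at -1.55 and 210394_x_at at -1.08, against -1.43, -1.27, -1.70 and -1.22 as reported. With no floor and a pseudocount of 32 these 4 stayed past a log2 difference of -1, and 215881_x_at joined them at -1.08. With the floor at the 75th percentile no SSX probe set was measured, so the calls exist only at low signal.

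**Figure D3:**
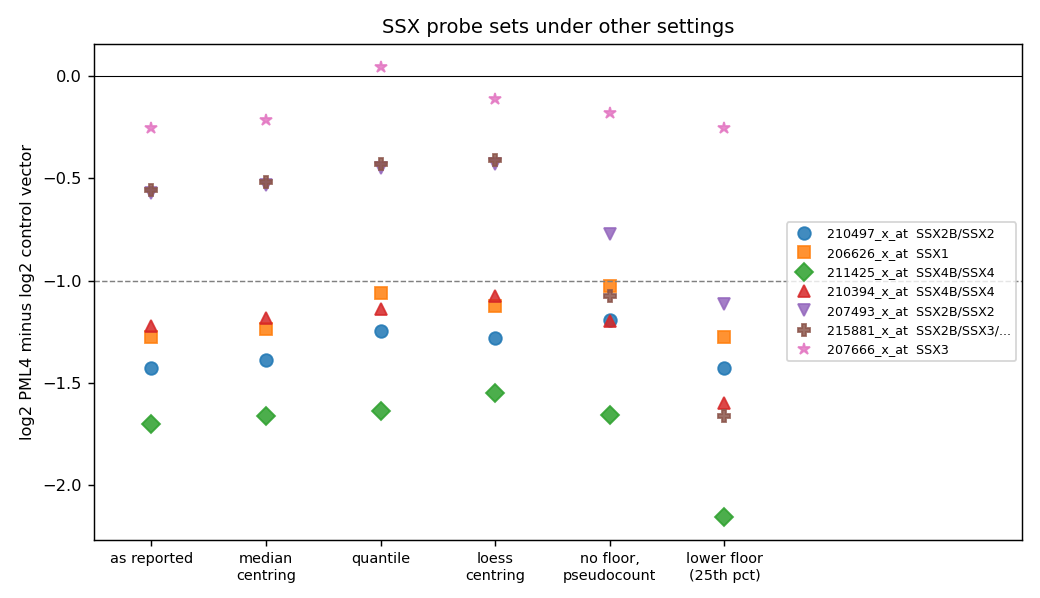
Log2 difference of the 7 measured SSX probe sets as reported and under 5 other settings, with a dashed line at a 2-fold lower signal. The probe sets 210497_x_at, 206626_x_at, 211425_x_at and 210394_x_at lie below the line in each column, and 207666_x_at lies nearest to 0 and crosses it after quantile normalization.

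MAGEA genes gave signals far above the floor for the copies MAGEA2, MAGEA3, MAGEA6 and MAGEA12, each somewhat higher with PML4. MAGE proteins bind RING ubiquitin ligases through their conserved MAGE homology domain and steer them to new targets. The probe set 209942_x_at, shared by MAGEA3 and MAGEA6, gave 11594.4 with the vector and 15198.0 with PML4, 1.31-fold higher. The probe set annotated to MAGEA6 alone, 214612_x_at, was at 11549.5 and 15217.0, 1.32-fold higher. These readings are nearly the same on both arrays, and with copies this close the annotation to MAGEA6 alone need not mean a separate measurement.

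MAGEA12 and the MAGEA2 pair were shifted the same way. MAGEA12 was at 6880.1 and 8335.9, 1.21-fold higher. MAGEA2 and MAGEA2B were read by 214603_at at 2507.5 and 3123.2, 1.25-fold higher, and by 1553830_s_at at 1419.3 and 2027.5, 1.43-fold higher. All 5 readings of these copies were higher, with log2 differences between 0.28 and 0.51, none near a call.

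Their genes lie together, interleaved with the CSAG genes, in RefSeq's order of protein-coding genes on the X chromosome: MAGEA3, CSAG2, MAGEA2B, CSAG1, MAGEA12, MAGEA2, CSAG3 and MAGEA6. The CSAG genes are cancer testis genes too, and the shared probe set of CSAG2 and CSAG3 was at 1216.6 and 1300.8, a log2 difference of 0.10. CETN2, the centrin gene next to MAGEA6 and not a cancer testis gene, was at 718.1 and 1269.5, a log2 difference of 0.82. The other measured neighbours were GABRQ at -0.02, NSDHL at 0.17 and ZNF185 at -0.02.

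The remaining MAGEA probe sets were level or dim. MAGEA5P, a pseudogene read by the shared 214642_x_at, was at 677.9 and 715.2. MAGEA1, the first antigen of the family to be isolated, was at 173.5 and 162.7. MAGEA4 gave 81.2 with the vector and 19.7 with PML4, just above the floor on the former, so its bound is at least 1.12-fold lower. Readings of MAGEA8, MAGEA9 with MAGEA9B, MAGEA10, MAGEA11 and the other of MAGEA5P lay under the floor on both arrays, between 0.7 and 67.3.

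Both measured MAGEC genes were higher with PML4. MAGEC2, which pairs with the ubiquitin ligase TRIM28, was read by 220062_s_at at 3367.7 and 4616.1, 1.37-fold higher. MAGEC1 was at 1683.1 and 2641.6, 1.57-fold higher, and its difference of 0.65 lay at the 95.1th percentile of all measured probe sets. The 2 genes are neighbours on the X chromosome in RefSeq's order. The other MAGEC2 probe set and that of MAGEC3 were under the floor on both arrays.

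MAGEB genes did not share a direction. MAGEB2 was at 977.2 and 961.7, a level reading, and MAGEB1 was at 420.3 and 517.4, 1.23-fold higher. The 5 probe sets of MAGEB3, MAGEB4, MAGEB6 and MAGEB18 were under the floor on both arrays, between 1.2 and 41.7.

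GAGE genes, a tandem array of near-identical copies with no settled function, were bright on both arrays and a little higher with PML4. The shared probe set 208155_x_at gave 15878.0 with the vector and 17797.6 with PML4, 1.12-fold higher. The shared 207086_x_at was at 14990.8 and 17142.8, 206640_x_at at 14096.3 and 15221.4, and 208235_x_at at 12230.2 and 14542.8. The 4 were higher by log2 differences of 0.11 to 0.25. Over the 742 probe sets with a mean signal of at least 10000 the median difference was -0.07, and the central 90% ran from -0.47 to 0.37. The GAGE readings lay within that range. Those of 209942_x_at and 214612_x_at, for MAGEA3 and MAGEA6, lay just above it, at 0.39 and 0.40. GAGE1 on its own, by 208283_at, was under the floor at 39.0 and 48.0, and the shared probe sets cannot tell which copies gave the signal.

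PAGE and XAGE genes, relatives of GAGE, were each measured by 1 probe set. PAGE1 gave 80.6 with the vector and 137.4 with PML4, 1.70-fold higher. That was near the floor, and after quantile normalization its log2 difference was 1.03, just past the size of a call. XAGE1A and XAGE1B shared 220057_at, at 746.7 and 842.1, 1.13-fold higher. PAGE4, PAGE5, XAGE2 and XAGE3 were under the floor on both arrays, between 5.0 and 44.1.

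CTAG genes, which encode NY-ESO-1 and its relative LAGE-1, were well above the floor with readings that disagreed in direction. CTAG1A and CTAG1B, 2 copies of the NY-ESO-1 gene, were read by 3 shared probe sets. The probe set 211674_x_at gave 2683.0 with the vector and 2933.5 with PML4, 210546_x_at was at 2693.5 and 2020.2, and 217339_x_at was at 611.3 and 1107.2. Their ratios of PML4 to control were 1.09, 0.75 and 1.81, so the direction for NY-ESO-1 depended on the probe set. CTAG2 was read at 3033.8 and 2458.5 by 215733_x_at and at 501.7 and 581.8 by 207337_at, ratios of 0.81 and 1.16. The highest and lowest log2 difference of the CTAG1 probe sets lay 1.27 apart. Gaps between pairs of single-gene probe sets of 1 gene had a 95th percentile of 1.07. That is not a like measure, since the CTAG1 gap is the widest among 3 shared probe sets.

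PRAME, a leucine-rich repeat protein that represses retinoic acid receptor signalling and serves as a substrate receptor of cullin 2 ubiquitin ligases, was read by 1 probe set. It gave 25066.3 with the vector and 19544.3 with PML4, 1.28-fold lower, a log2 difference of -0.36. At this brightness most probe sets were slightly lower: 282 probe sets with a mean signal of at least 20000 had a median of -0.16. Their 5th percentile was -0.356, and PRAME lay just below it at -0.359. After loess centring, which follows the shift of bright probe sets in part, PRAME was at -0.30.

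The probe sets of genes outside the families that match the rule by name were not called. The 6 of SSX2IP, a centrosome and adhesion protein, had log2 differences between -0.22 and 0.35, and 4 were higher. The shared CTAGE probe sets, 214355_x_at at 314.8 and 237.0 and 215549_x_at at 220.3 and 150.1, were 1.33-fold and 1.47-fold lower, and those of CTAGE1 and CTAGE11P were under the floor on both arrays.

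Cancer testis genes of other X-linked families gave a pair of lower calls. Of 38 genes 13 were measured, through 7 distinct probe sets, of which 6 had a lower and 1 a higher signal and 2 were called lower. Of the 6 lower ones 3, those of CT55, NXF2 and PASD1, entered through the control array and could only be lower. The medians and counts of the lists below take 1 probe set per gene, with shared ones counted once; among all 12971 such readings 3.18% were called lower, 1.19% higher, 7163 had a lower signal, and the median was -0.05. CT55, a germ cell gene, gave 252.4 with the vector and 49.2 with PML4, at least 3.49-fold lower. FATE1 was at 151.2 and 72.5, a log2 difference of -1.06 that was -0.80 after quantile normalization, under the size of a call. The CT45 genes, read by a shared probe set, were at 1630.8 and 1006.4, a log2 difference of -0.70, and SAGE1 was at 1170.7 and 1110.7. The median difference of this list was -0.70, with the same limit, and the shared probe set of CSAG2 and CSAG3 was the 1 with a higher signal.

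Autosomal cancer testis genes gave 1 call among 16 measured. ACRBP, which binds proacrosin in sperm, gave 876.7 with the vector and 326.9 with PML4, a log2 difference of -1.42. CTCFL, the testis paralogue of the insulator protein CTCF, was at 11729.4 and 6721.0, a log2 difference of -0.80 at high signal. KDM5B, a histone demethylase, was at 2930.2 and 3645.4, and ODF2, a sperm tail protein, at 1902.8 and 1896.9. Signals were lower for 11 of the 16, with a median difference of -0.09, near that of all readings.

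None of the other MAGE genes, the partner proteins or the silencing genes was called. Of 6 measured MAGE genes outside the testis families, which are expressed in many tissues, 4 were higher, and MAGED1 was at 1023.9 and 1371.1. Of 2 measured PRAME-like genes, PRAMEF11 and LRRC14, 1 was higher and 1 lower. Of 23 partner genes 17 were higher, with a median of 0.16: TRIM28 was at 4391.7 and 5112.0, EED, a subunit of polycomb repressive complex 2, at 3090.0 and 4525.3, and CUL2 at 1649.8 and 2134.8. The other 6 were lower, among them RXRA at 625.0 and 422.8, a difference of -0.56. Each gene was counted by its brightest measured probe set. Among genes counted as higher, SMARCA4 had 2 of 8 measured probe sets higher and SUZ12 had 1 of 3. Of 30 genes of DNA methylation and promoter silencing 20 were higher, with a median of 0.11. Both counts have this limit, and among the brightest 7343 of all measured probe sets 55.0% had a higher signal. DNMT1, the maintenance methyltransferase, was at 7043.6 and 7870.3, UHRF1, its recruiter, at 4716.1 and 5419.0, and DNMT3B at 3750.4 and 3950.9. DNMT3A was lower, at 733.5 and 597.3. HELLS, a chromatin remodeller needed for DNA methylation, was at 2455.4 and 1554.9, and TET1, a 5-methylcytosine oxidase, at 1883.2 and 1231.3. Their differences were -0.66 and -0.61, but 1 of 4 measured HELLS probe sets and 1 of 2 of TET1 were higher, so the direction of TET1 depended on the probe set. MBD1, which binds methylated DNA, was at 1076.5 and 1681.9, a difference of 0.64, with 3 of 5 probe sets higher.

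**Figure D4:**
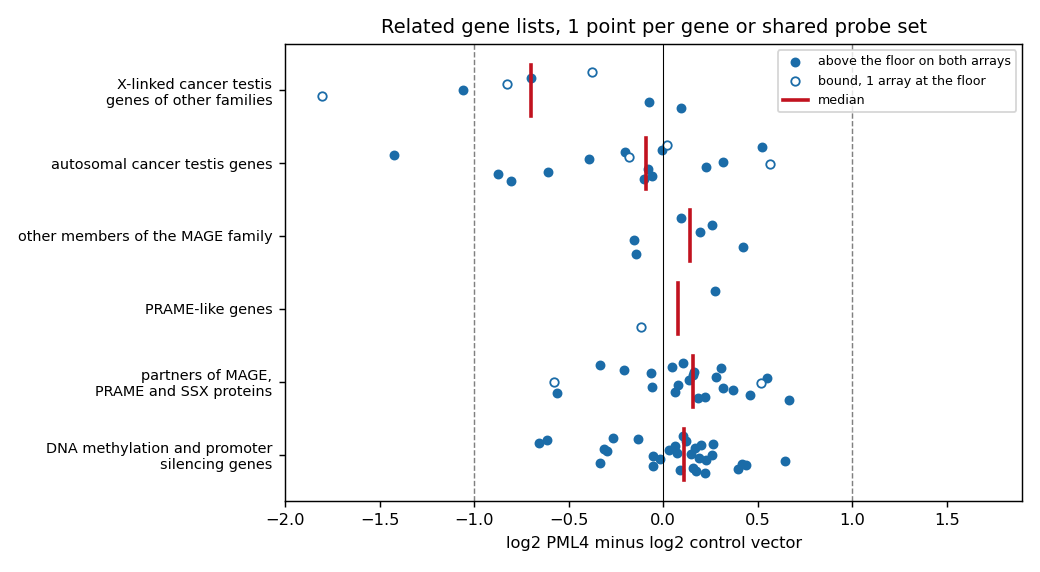
Log2 difference, PML4 minus control vector, for 6 related gene lists, 1 point per gene or shared probe set, open where 1 array was at the floor, with a red bar at each median and dashed lines at a 2-fold difference. The X-linked list has its median at -0.70, and its open points could only be lower. The partner and silencing lists lie between the dashed lines with medians of 0.16 and 0.11.

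Markers of the line and of other cells were read beside these results. Of 13 K562 markers with a probe set all 13 were measured, among them GATA1 at 2333.2 and 2821.9 and HBE1 at 18103.9 and 24540.1. The embryonic globin gene HBZ was called higher, at 1401.4 and 5465.5. ALAS2, the erythroid enzyme of haem synthesis, was called lower at 272.3 and 106.1, and so was EPOR, the erythropoietin receptor gene, at 760.3 and 364.8, though after quantile normalization EPOR was just under the size of a call and 1 of its 5 measured probe sets was higher. Of 17 germ cell markers with a probe set 4 were measured, those of SYCE1, ACRV1, ZBTB16 and OAZ3. SYCE1, of the synaptonemal complex, was at 497.3 with the vector and had a log2 difference of -0.73, and the other measured ones were near the floor. DDX4, DAZL, PRM1 and PRM2 lay under the floor on both arrays. The measured germ cell markers summed to a signal of 717.9 with the vector and 502.4 with PML4. Of 10 markers of somatic testis cells 5 were measured, with 1 call, INHA, at least 2.85-fold lower, and summed signals of 3453.5 and 4917.1. STAR made up most of both sums, at 2635.2 and 4426.7. Of the 5 measured 2 were higher and 3 lower, with a median difference of -0.44. INHA and DHH passed the floor with the vector alone and could only be lower, and that median is the bound of DHH. Of fibroblast markers 2 of 9 were measured, of epithelial markers 4 of 9 and of lymphoid markers 3 of 8, with CD3D the only call, at 2478.0 and 4996.3. Their summed signals were 512.9 and 335.7, 17129.7 and 17098.4, and 2789.4 and 5222.3, on the control and PML4 arrays, and their part in the results was not tested.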

How the data were processed

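Total RNA of 2 K562 cultures, 6 µg each, was labelled with biotin and hybridised to Affymetrix arrays, per the labels' protocols. The authors deposited linear signal intensities. The submitters' processing notes name MAS5 for them, and its settings are unknown here. Detection calls were not used here. Of 54675 probe sets 62 are controls. Genes came from GEO's platform annotation, and of 61 gene names taken by the rule 59 matched RefSeq (GRCh38.p14) by Entrez identifier, all with the same symbol; GAGE4 and GAGE7 were not matched. The annotation names no build.

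Computed here, with Python 3.11.15, pandas 2.3.3, numpy 2.4.6 and statsmodels 0.14.6: the floor of 72.4, log2 differences, calls at 2-fold, and the share of all measured probe sets called. No further scaling was applied. The calling step was tested on simulated arrays with changes planted only in bright probe sets. That says nothing of calls near the floor, such as those in SSX. The 12 gene lists, the families and the naming rule were chosen with earlier results of these data known. Values are given for probe sets called, with 1 array at the floor, or among the 3 of highest signal in a family, and others by range or as chosen later. Probe set levels of different genes were not compared. The number of arrays limits the precision.

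Other settings were a floor at percentile 25 or 75, a pseudocount of 32 with and without the filter, median, quantile and loess (span 0.4) scaling, other choices of probe sets, and calls at 1.5-fold and 3-fold. Results for SSX and for the other families separately, and without SSX2IP and CTAGE, were added after seeing the data.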

Additional observations from a re-analysis of the deposited data

How the results depend on the processing

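The median difference over all 39 measured probe sets of the rule, 0.10, lay between 0.04 and 0.21 under all alternatives run, and that outside SSX stayed between 0.17 and 0.28. The count of 4 lower calls, all in SSX, was 4 after median, quantile and loess scaling and with calls at 1.5-fold. It was 9 for a floor at percentile 25 (7 in SSX, 2 outside), 0 for a floor at percentile 75 or when the _x_at and _s_at probe sets were dropped, settings that leave no SSX probe set measured, and 1 with single-gene probe sets, at gene level, or with calls at 3-fold, each for SSX too. The pseudocount of 32 gave 6, with and without the filter, 5 of them in SSX and 1 outside. The count of 0 higher calls became 2 at the lower floor, both in SSX, 1 after quantile normalization and 3 at 1.5-fold, the last 2 outside SSX. The SSX median of -1.22 was -0.76 after quantile normalization, which adds a probe set, -0.76 with single-gene probe sets and at gene level, 2 probe sets each, and -0.50 with no filter. Of all measured probe sets, 28.8% of calls were higher as deposited, against 47.0% with quantile and 45.1% with loess scaling. With 1 array a group no replicate could be left out. No paired analysis was possible because each group holds 1 array. Low signal limits the SSX and PAGE1 values.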
